A study of Mus musculus with 18 samples.

Results

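The 9 genes of lung fluid and ion transport described here were measured in the fetal mouse lung shortly before birth. They are Scnn1a, Scnn1b and Scnn1g, the α, β and γ subunits of the epithelial sodium channel (ENaC), Atp1b1, the β1 subunit of the Na,K-ATPase, the chloride channel gene Cftr, Slc12a2, which encodes the Na-K-2Cl cotransporter NKCC1, and the water channel genes Aqp1, Aqp4 and Aqp5. The members were found by gene symbol, which gave 18 of the 45037 probe sets tested and 9 of the 18193 distinct symbols on the array. The 18 probe sets are 5 for Atp1b1, 3 each for Slc12a2 and Aqp4, 2 for Cftr and 1 for each of the others.

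The fetal lung is filled with a fluid that its own epithelium secretes. Chloride brought into the cell by NKCC1 at the basolateral side leaves through apical channels such as CFTR, and sodium and water follow. Around birth the epithelium turns to absorption: sodium enters through apical ENaC, is pumped out by the Na,K-ATPase, and water leaves with it. Aquaporin 5 lies in the apical membrane of alveolar type I cells, aquaporin 1 in the endothelium of lung vessels and aquaporin 4 in the basolateral membrane of airway epithelium.

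Lungs of BALB/c fetuses were compared in 6 groups of 3 arrays. Vehicule-injected males (17 m, 18 m), vehicule-injected females (17 f, 18 f) and flutamide-treated males (17 flut, 18 flut) were harvested at gestational day 17 (GD17) or 18 (GD18). Flutamide, an antagonist of the androgen receptor, was given to the pregnant female at 1 mg per day by sub-cutaneous injection from GD10 to the eve of harvest, and the vehicule groups received the carrier solution over the same days. No female group received flutamide, and each array carried RNA pooled from 3 fetuses of 1 sex, each from another litter. Values are log2 of the RMA intensity, differences are on the log2 scale, and a probe set is called when its limma adjusted p, over all probe sets tested, is under 0.05. For genes with more than 1 probe set, that of highest mean over the 18 arrays leads. A single pool is named by its group and number (17 m 2), and values of a group are given in the order of pools 1, 2 and 3.

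Some pools stood apart. Xist, expressed from the inactive X chromosome, was at 11.95 in 18 flut 3 against 8.15 and 8.08 in the other pools of its group and from 11.33 to 12.51 in the female pools. The Y-linked gene Eif2s3y was at 7.21 in the same pool, against 8.04 and 8.16 in its group and 3.09 to 3.64 in the female pools, so that 18 flut 3 carried both signals. The summed intensity of 9 liver genes was 73600 in 18 m 3 against 11800 and 8490 in the other 18 m pools, 40400 in 18 flut 2 against 14700 and 9650 in its group, and 34700, 35300 and 35000 in 17 m 3, 17 f 2 and 17 f 3. The summed intensity of 10 exocrine pancreas genes was 14600 in 17 m 3, 19100 in 17 f 2 and 18200 in 17 f 3, and from 576 to 869 in the remaining pools. The surfactant gene Sftpc, which marks alveolar type II cells, was at or above 100% of probe sets after rounding. The type I marker Ager and the endothelial marker Pecam1 were at or above 99% and 91.4% of them, and Nkx2-1, the transcription factor of lung epithelium, at or above 47.8%.

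The stretch of 250 bases before the annotated start was read for 6 of the 9 members from RefSeq on GRCm38.p6. The 3 printed, with every CG dinucleotide in capitals, are those of the water channel gene with the largest day difference, of the water channel gene next to it and of the chloride channel gene. They lie at chr15:99590778-99591027 (Aqp5), chr6:55336049-55336298 (Aqp1) and chr6:18170437-18170686 (Cftr), all on the plus strand.
Aqp5: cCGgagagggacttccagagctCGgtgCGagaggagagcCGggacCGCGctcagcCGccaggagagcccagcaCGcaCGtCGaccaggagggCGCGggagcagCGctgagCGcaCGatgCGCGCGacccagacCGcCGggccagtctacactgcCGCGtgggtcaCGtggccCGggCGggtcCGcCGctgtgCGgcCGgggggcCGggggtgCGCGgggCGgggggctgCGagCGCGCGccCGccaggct
Aqp1: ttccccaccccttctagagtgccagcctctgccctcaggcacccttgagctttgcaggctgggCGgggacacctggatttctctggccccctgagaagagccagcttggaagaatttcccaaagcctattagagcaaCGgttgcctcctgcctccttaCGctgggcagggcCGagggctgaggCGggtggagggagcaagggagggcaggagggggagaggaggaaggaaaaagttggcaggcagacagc
Cftr: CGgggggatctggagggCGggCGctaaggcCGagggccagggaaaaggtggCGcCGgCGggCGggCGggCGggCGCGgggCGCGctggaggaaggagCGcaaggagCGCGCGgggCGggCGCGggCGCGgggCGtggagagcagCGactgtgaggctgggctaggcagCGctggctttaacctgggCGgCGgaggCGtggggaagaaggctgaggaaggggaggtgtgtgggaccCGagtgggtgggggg

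The promoters of Aqp5 and Aqp1 differ in base composition. The Aqp5 window is 78.4% G and C and holds 38 CG dinucleotides, more than 98.1% of 32851 promoter windows of the same length. The Aqp1 window is 62% G and C and holds 5, more than 44.4% of them. The Cftr window is 76.4% G and C and holds 30, more than 94.1% of windows, whose median is 6. Those of Atp1b1, Scnn1g and Scnn1b hold 24, 16 and 7, and the annotated gene of Scnn1g begins inside its window. On the same build the ENaC genes lie at chr6:125314271-125344943 (Scnn1a), chr7:121865038-121918728 (Scnn1b) and chr7:121734420-121768482 (Scnn1g), and Atp1b1 at chr1:164437099-164458355. Scnn1g and Scnn1b are neighbours with 96555 bases between them. On both strands, none of the 6 windows held AGAACA, the core to which the androgen and glucocorticoid receptors bind, or the TATA motif TATAAA. These letters were present in 16.1% and 12.4% of all windows.

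All of the 9 members were higher in mean at GD18 than at GD17 in every group of fetuses. Of all probe sets 51.2%, 52.9% and 46.3% were higher in mean in males, females and flutamide-treated males. In males, 12 of the 18 member probe sets were called higher at GD18, against 12.4% of all probe sets. In females 15 were called higher, against 16.5% of all, and in flutamide-treated males 13, against 9.61% of all. No member probe set was called lower at GD18 in any of the 3 comparisons, and the share of all called lower was not counted. Of the leading probe sets, 8 of 9 were called higher in males and all 9 in females and in flutamide-treated males. Their median log2 difference was 1.06 in males, 1.28 in females and 0.85 in flutamide-treated males, while that of all probe sets was 0.005, 0.015 and -0.015. In 8 of the 9 genes every GD18 pool lay above every GD17 pool, with a gap between 0.06 for Cftr and 1.72 for Aqp5. The share of all genes with such a gap was not counted. In whole lung RNA, more cells of a type and more RNA per cell, or fewer cells of a type and less RNA per cell, cannot be told apart.

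**Figure D1:**
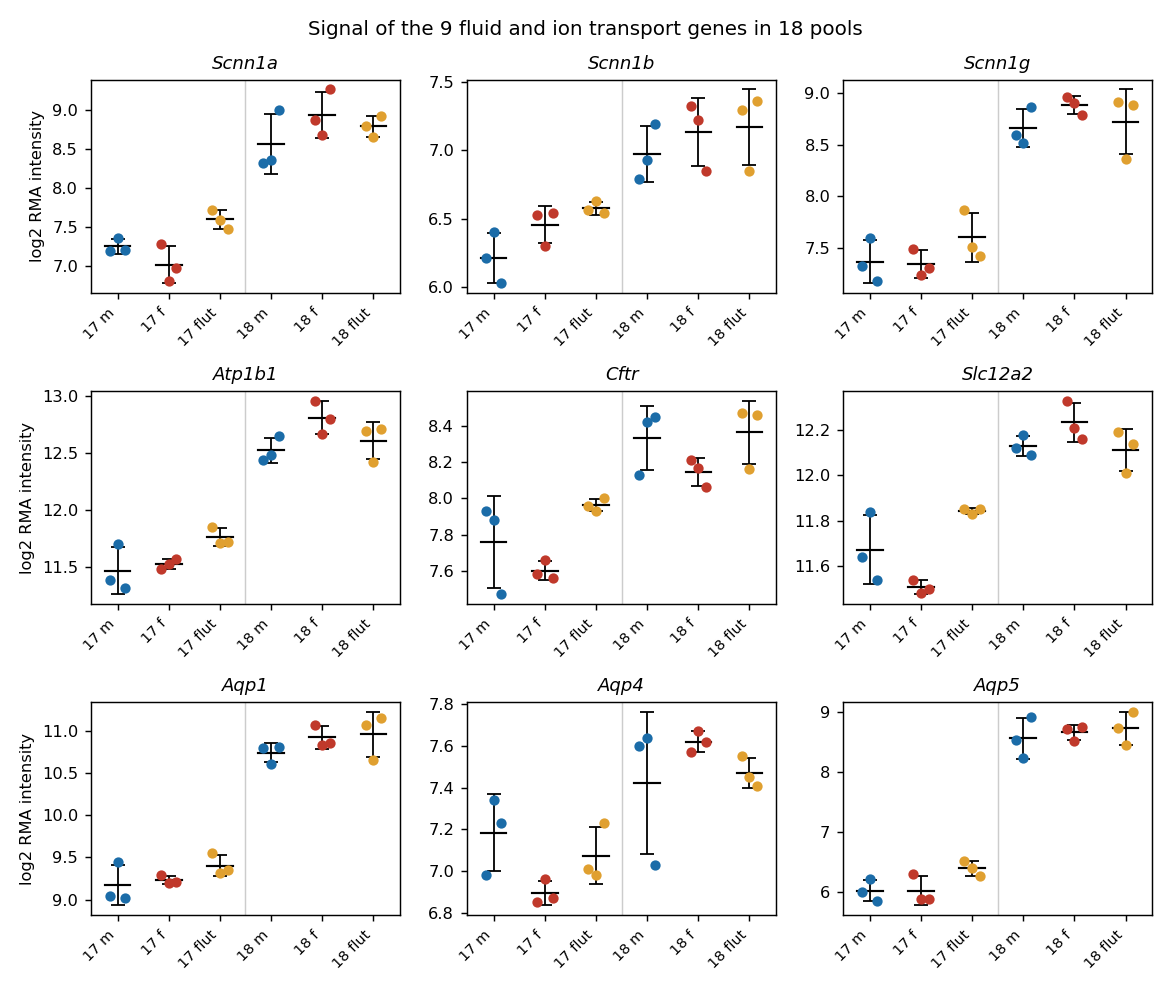
Log2 RMA intensity (vertical axes, a scale of its own for each gene) of the leading probe set of the 9 genes in the 6 groups. Each point is 1 pool, with the mean and SD of 3 pools drawn as bars. The GD18 pools lie above the GD17 pools in 8 panels, and in the Aqp4 panel pool 18 m 3 at 7.03 lies among the GD17 pools.

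ENaC is built of the 3 subunits and is the apical entry step for sodium. Scnn1a (1425088_at) was at 7.19, 7.36 and 7.21 in 17 m, at 7.28, 6.81 and 6.97 in 17 f and at 7.72, 7.59 and 7.48 in 17 flut. At GD18 Scnn1a was at 8.32, 8.36 and 9 in 18 m, at 8.87, 8.68 and 9.26 in 18 f and at 8.79, 8.65 and 8.92 in 18 flut. The days did not overlap, and pool 18 m 3 lay above both other male pools of its day. Scnn1a rose 2.48-fold in males (log2 difference 1.31, SE 0.17, adjusted p = 4.7e-05), 3.77-fold in females (1.91, SE 0.17, adjusted p = 4.6e-07) and 2.28-fold in flutamide-treated males (1.19, SE 0.17, adjusted p = 0.00011).

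Scnn1g (1419079_at) was at 7.32, 7.59 and 7.18 in 17 m, at 7.49, 7.23 and 7.3 in 17 f and at 7.87, 7.51 and 7.42 in 17 flut. Scnn1g at GD18 was at 8.6, 8.52 and 8.87 in 18 m, at 8.96, 8.91 and 8.79 in 18 f and at 8.92, 8.36 and 8.89 in 18 flut. The γ subunit thus showed a gap of 0.49 between the highest GD17 and the lowest GD18 pool. Scnn1g rose 2.46-fold in males, 2.92-fold in females and 2.18-fold in flutamide-treated males (adjusted p = 1.9e-05, 1.1e-06 and 6.8e-05).

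Scnn1b (1418475_at) was at 6.21, 6.4 and 6.03 in 17 m, at 6.53, 6.3 and 6.54 in 17 f and at 6.56, 6.63 and 6.54 in 17 flut. Scnn1b at GD18 was at 6.79, 6.93 and 7.19 in 18 m, at 7.32, 7.22 and 6.85 in 18 f and at 7.29, 6.85 and 7.36 in 18 flut. The days were 0.16 apart at their nearest pools. The β subunit rose 1.69-fold in males (log2 difference 0.76, SE 0.15, adjusted p = 0.0013), 1.59-fold in females (0.67, adjusted p = 0.0019) and 1.5-fold in flutamide-treated males (0.59, adjusted p = 0.0088). Without 18 flut 3 the rise of Scnn1b in flutamide-treated males was 0.49 (adjusted p = 0.054), and without the 3 GD17 pools high in pancreas genes, which leaves a lone 17 f pool assumed to vary like the other groups, that in females was 0.6 (adjusted p = 0.064).

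Atp1b1, the β1 subunit that brings the sodium pump to the membrane, was the member with most probe sets. Its leading probe set (1439036_a_at) was at 11.38, 11.7 and 11.31 in 17 m, at 11.48, 11.52 and 11.57 in 17 f and at 11.85, 11.71 and 11.72 in 17 flut. At GD18 Atp1b1 was at 12.44, 12.48 and 12.65 in 18 m, at 12.96, 12.67 and 12.8 in 18 f and at 12.69, 12.42 and 12.71 in 18 flut. Every GD18 pool was above every GD17 pool by 0.57 or more. Atp1b1 rose 2.08-fold in males (1.06, SE 0.11, adjusted p = 4.9e-06), 2.44-fold in females (1.28, SE 0.11, adjusted p = 2.4e-07) and 1.8-fold in flutamide-treated males (0.85, SE 0.11, adjusted p = 3.5e-05). The 3 other bright Atp1b1 probe sets rose in each comparison, by 1.05 to 1.08 in males, 1.2 to 1.33 in females and 0.76 to 0.89 in flutamide-treated males. The fifth, 1455949_at, which was the dimmest with a mean of 6.11, differed by -0.05, 0.13 and 0.31 and was not called.

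The leading probe sets of Slc12a2 and Cftr, the genes of chloride secretion, rose by 0.27 to 0.73 on the log2 scale. The leading probe set of Slc12a2 (1417622_at) was at 11.64, 11.84 and 11.54 in 17 m, at 11.54, 11.48 and 11.5 in 17 f and at 11.85, 11.83 and 11.85 in 17 flut. At GD18 Slc12a2 was at 12.12, 12.18 and 12.09 in 18 m, at 12.33, 12.21 and 12.16 in 18 f and at 12.19, 12.01 and 12.14 in 18 flut. The cotransporter pools of the 2 days were separate, and the flutamide-treated pools of GD17 were the nearest to GD18. Slc12a2 rose 1.38-fold in males (0.46, SE 0.07, adjusted p = 0.00029), 1.66-fold in females (0.73, SE 0.07, adjusted p = 1.5e-06) and 1.2-fold in flutamide-treated males (0.27, SE 0.07, adjusted p = 0.016). The last call was lost without 17 flut 2 (0.26, adjusted p = 0.052), 18 flut 1 (0.23, adjusted p = 0.077) or 18 flut 3 (0.25, adjusted p = 0.061).

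The other probe sets of Slc12a2 were less alike. 1417623_at rose by 0.67 in males and 0.75 in females (adjusted p = 0.0025 and 0.00057), and differed by 0.09 in flutamide-treated males (adjusted p = 0.76). It was at 10.53, 10.62 and 11.01 in 18 m and at 10.52, 10.08 and 10.36 in 18 flut, without overlap. The difference between these groups was 0.4 (SE 0.14, adjusted p = 0.15), and the interaction of flutamide and day, which is the GD18 difference minus that of GD17, was 0.58 (adjusted p = 0.26). 1448780_at rose in females (0.65, adjusted p = 0.0019) and differed by 0.35 and 0.4 in males and flutamide-treated males (adjusted p = 0.085 and 0.061).

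Cftr (1420579_s_at) was at 7.93, 7.88 and 7.47 in 17 m, at 7.58, 7.66 and 7.56 in 17 f and at 7.96, 7.93 and 8 in 17 flut. At GD18 Cftr was at 8.13, 8.42 and 8.45 in 18 m, at 8.21, 8.17 and 8.06 in 18 f and at 8.47, 8.16 and 8.46 in 18 flut. The lowest pool of the chloride channel gene was 17 m 3, and the narrowest gap between days was from 17 flut to 18 f. Cftr rose 1.49-fold in males (0.58, SE 0.12, adjusted p = 0.0016), 1.46-fold in females (0.55, SE 0.12, adjusted p = 0.0014) and 1.32-fold in flutamide-treated males (0.4, SE 0.12, adjusted p = 0.021). In flutamide-treated males the call was lost without 17 flut 1, 17 flut 2, 18 flut 1 or 18 flut 3, with an adjusted p of 0.057, 0.068, 0.092 and 0.091. A fit to the male arrays alone gave the same 0.58 in males with an adjusted p of 0.052. The second Cftr probe set, 1427767_a_at, had a mean of 4.15, at or above only 13.7% of probe sets, and was called in no comparison.

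The water channels spanned the range of the day differences. Aqp5 (1418818_at) was at 6, 6.22 and 5.86 in 17 m, at 6.3, 5.88 and 5.88 in 17 f and at 6.52, 6.41 and 6.27 in 17 flut. At GD18 Aqp5 was at 8.53, 8.24 and 8.92 in 18 m, at 8.72, 8.52 and 8.75 in 18 f and at 8.74, 8.45 and 9 in 18 flut. No other member had so wide a gap between the days. Aqp5 rose 5.82-fold in males (2.54, SE 0.17, adjusted p = 3.2e-07), 6.24-fold in females (2.64, SE 0.17, adjusted p = 6.7e-08) and 5.03-fold in flutamide-treated males (2.33, SE 0.17, adjusted p = 7.9e-07). By size of the rise it ranked 14, 18 and 21 among 18193 genes in males, females and flutamide-treated males.

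Aqp1 (1416203_at) was at 9.04, 9.44 and 9.02 in 17 m, at 9.29, 9.2 and 9.21 in 17 f and at 9.55, 9.31 and 9.35 in 17 flut. At GD18 Aqp1 was at 10.8, 10.61 and 10.81 in 18 m, at 11.07, 10.83 and 10.86 in 18 f and at 11.07, 10.65 and 11.15 in 18 flut. The days were apart by 1.06 at their nearest pools. Aqp1 rose 2.97-fold in males, 3.21-fold in females and 2.93-fold in flutamide-treated males (adjusted p = 1.2e-06, 1.4e-07 and 1.8e-06) and ranked 84, 90 and 88 by the size of the rise.

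Aqp4 (1425382_a_at) was at 6.98, 7.34 and 7.23 in 17 m, at 6.85, 6.96 and 6.87 in 17 f and at 7.01, 6.98 and 7.23 in 17 flut. At GD18 Aqp4 was at 7.6, 7.64 and 7.03 in 18 m, at 7.57, 7.67 and 7.62 in 18 f and at 7.55, 7.45 and 7.41 in 18 flut. The male days overlapped, because 18 m 3 was as low as the GD17 pools, while the female days were far apart. Aqp4 rose by 0.73 in females (SE 0.13, adjusted p = 0.00031) and by 0.4 in flutamide-treated males (SE 0.13, adjusted p = 0.041), and differed by 0.24 in males (SE 0.13, adjusted p = 0.2). Without 18 m 3, the pool high in liver genes, the male difference was 0.44 (adjusted p = 0.0038). The call in flutamide-treated males was lost when any 1 of their pools other than 17 flut 3 was left out, with adjusted p from 0.072 to 0.14. A second Aqp4 probe set, 1434449_at, rose in females and flutamide-treated males (0.55 and 0.58, adjusted p = 0.00036 and 0.00049) and differed by 0.21 in males (adjusted p = 0.15). With a pool left out, its male difference ran from 0.11 to 0.27 and was not called, also without 18 m 3. The dimmer 1447745_at was not called.

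**Figure D2:**
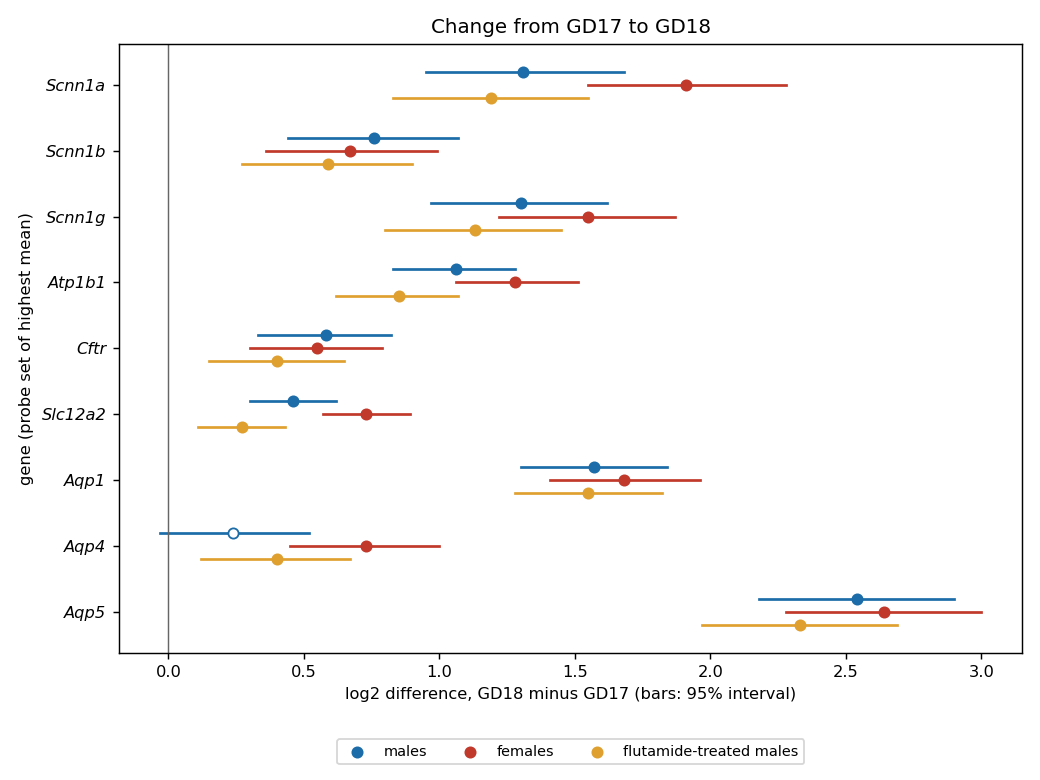
Log2 difference GD18 minus GD17 (horizontal axis) of the leading probe set of each gene in males, females and flutamide-treated males. Points are the fitted differences and bars their 95% intervals, with filled points where the adjusted p is under 0.05. Aqp5 lies between 2.33 and 2.64, and the open point is Aqp4 in males at 0.24.

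Markers of several lung cell types moved with the members from GD17 to GD18. Over all probe sets 12.4%, 16.5% and 9.61% were called higher in males, females and flutamide-treated males. The share of all probe sets called lower was not counted. Of 8 alveolar type I genes, 7, 6 and 7 were called higher in males, females and flutamide-treated males, none was called lower, and the medians were 0.99, 1.3 and 0.87. Their summed intensity ran from 13200 to 18300 in 17 m and from 31800 to 34000 in 18 m. Of 9 alveolar type II genes, 7 were called higher in each comparison, with medians of 1.46, 1.63 and 1.31. Of 8 endothelial genes, 6, 7 and 7 were called higher, with medians of 0.53, 0.65 and 0.51. Of 8 genes of epithelium in general, 5, 4 and 3 were called higher and 2, 1 and 1 lower, and their sum ran from 13200 to 14700 in 17 m and from 17200 to 17900 in 18 m. All 4 club cell genes were called higher in each comparison, with medians of 1.71, 2.05 and 1.84, and 5, 6 and 2 of 6 ciliated cell genes. In females 8 of 9 erythroid and 8 of 10 exocrine pancreas genes were called lower, with medians of -1.07 and -3.07. Pools 17 f 2 and 17 f 3 were those high in pancreas genes. The erythroid sum was alike in all 17 f pools, at 12700, 12700 and 12800. The part of these changes in the rise of the members was not tested.

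Between males and females no member probe set was called on either day. At GD17, 0 of 18 passed in limma, against 4.1% of all probe sets, with 2 at an unadjusted p under 0.05 and a lowest adjusted p of 0.28. The male pools lay above the female pools without overlap in 3 of 18 (16.7%), against 12% of all probe sets. In leading Slc12a2, 1 of the 3, the nearest pools 17 m 3 and 17 f 1 were equal after rounding (11.54). Aqp4 was higher in males by 0.29 (95% interval 0.01 to 0.56, adjusted p = 0.28) and Slc12a2 by 0.16 (0.01 to 0.32, adjusted p = 0.28). At GD18, 0 of 18 passed, against 1.85% of all, with 4 at an unadjusted p under 0.05 and a lowest adjusted p of 0.18. There 14 of 18 differences were below 0, while 50.8% of all probe sets were above 0. The male pools were lower without overlap in 4 (22.2%), against 7.33% of all probe sets.

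At GD18 the ENaC α subunit had the difference of greatest size among the leading probe sets. Scnn1a was 1.29-fold higher in females than in males, with a log2 difference of males minus females of -0.37 (95% interval -0.74 to -0.01, adjusted p = 0.33). With each pool left out in turn the difference ran from -0.59 (adjusted p = 0.028) without 18 m 3, the highest male pool at 9, to -0.21 (adjusted p = 0.73) without 18 f 3, the highest female pool. It did not pass when any other single pool was left out, and with array weights, which lower the influence of arrays that fit poorly, it was -0.55 (adjusted p = 0.016). Atp1b1 differed by -0.29 (95% interval -0.51 to -0.06, adjusted p = 0.21) in its leading probe set and by -0.34 in 1418453_a_at (adjusted p = 0.18). With array weights the leading probe set of Atp1b1 differed by -0.33 (adjusted p = 0.033), and with a pool left out it ran from -0.36 to -0.21 and did not pass. Cftr was the leading probe set with the opposite sign, at 0.19 (-0.06 to 0.44).

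The interaction of sex and day compares the sex difference at GD18 with that at GD17, and equally the rise in males with the rise in females. None of the 18 passed, against 6.54% of all probe sets, with 4 at an unadjusted p under 0.05. The 3 leading probe sets among these 4 were Scnn1a at -0.6 (95% interval -1.12 to -0.09, adjusted p = 0.17), Slc12a2 at -0.27 (-0.5 to -0.05, adjusted p = 0.15) and Aqp4 at -0.49 (-0.88 to -0.1, adjusted p = 0.14). In each of the 3 the rise was smaller in males in mean. With a pool left out, Scnn1a ran from -0.82 (without 18 m 3, adjusted p = 0.016) to -0.44, Slc12a2 from -0.34 to -0.19 and Aqp4 from -0.59 to -0.29, and the other fits of this kind did not pass. With array weights Scnn1a was at -0.85 (adjusted p = 0.0096), and without the 3 GD17 pools high in pancreas genes it was at -0.36 (adjusted p = 0.67).

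Flutamide was compared with vehicule in males on each day, and both this comparison and that of the sexes use the same male pools. At GD17, 1 of 18 member probe sets was called, against 3.55% of all, and 7 had an unadjusted p under 0.05. It was 1451152_a_at of Atp1b1, at 10.66, 10.97 and 10.69 in 17 m and at 11.14, 11.1 and 11.16 in 17 flut. The groups did not overlap, and the female pools, at 10.71, 10.78 and 10.82, lay with the males. The probe set was 1.28-fold higher after flutamide, with a difference of males minus flutamide-treated males of -0.36 (SE 0.09, adjusted p = 0.037). The other 3 bright Atp1b1 probe sets differed by -0.34, -0.29 and -0.19 (adjusted p = 0.055, 0.14 and 0.4). The call was lost when any 1 of 17 flut 1, 17 flut 2, 17 flut 3, 17 m 1 and 17 m 3 was left out (adjusted p from 0.083 to 0.14), while without 17 m 2 it held and 3 Atp1b1 probe sets were called.

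Most of the remaining member probe sets had values of the same sign at GD17, short of the threshold. In 14 of the 18 member probe sets and 8 of the 9 leading ones the males were lower. Over all probe sets the median difference was -0.024, and 43.8% were above 0. The male pools lay below the flutamide-treated pools without overlap in 7 of 18 (38.9%), against 14.6% of all probe sets, and these 7 belong to Scnn1a, Scnn1b, Atp1b1 with 3, Cftr and Aqp5. Some of the gaps were narrow. In Cftr 17 m 1 and 17 flut 2 were equal after rounding (7.93), and in leading Atp1b1 17 m 2 was at 11.7 and 17 flut 2 at 11.71. Scnn1b differed by -0.37 (95% interval -0.68 to -0.05, adjusted p = 0.18), Aqp5 by -0.37 (-0.73 to -0.02, adjusted p = 0.23) and Scnn1a by -0.34 (-0.71 to 0.02, adjusted p = 0.27). Among the leading probe sets Aqp4 was the exception at 0.1 (-0.17 to 0.38). Its second probe set, 1434449_at, was higher in males by 0.22 (0.01 to 0.43, adjusted p = 0.23) and is 1 of the 7 with an unadjusted p under 0.05. Also higher in males were 1448780_at of Slc12a2 (0.19) and 1427767_a_at of Cftr (0.17), unlike the leading probe sets of these genes.

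Some marker genes moved alongside at GD17. The type I sum was 13800, 18300 and 13200 in 17 m, 15400, 13900 and 14500 in 17 f, and 19000, 17300 and 18200 in 17 flut. The type II sum was 23200, 28300 and 22400 in 17 m, and 31200, 29600 and 30500 in 17 flut. Of the type I genes 2 of 8, of the type II genes 2 of 9, of the club cell genes 1 of 4 and of the ciliated cell genes 1 of 6 were called lower in 17 m than in 17 flut. Over all probe sets 3.55% were called in either direction. Of 8 endothelial genes and 8 genes of epithelium in general none was called, and 1 of 5 smooth muscle genes was called higher in 17 m. Pool 17 m 2, the highest of its group in both sums, was also the highest in 8 of the 9 members. The part of these differences in the values of the members was not tested.

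At GD18 no member probe set was called between males and flutamide-treated males, against 3.95% of all probe sets, with 2 at an unadjusted p under 0.05 and a lowest adjusted p of 0.056. The leading probe sets differed by -0.22 to 0.02. Scnn1a was at -0.22 (95% interval -0.58 to 0.14), Aqp1 at -0.22 (-0.49 to 0.06) and Aqp5 at -0.16 (-0.52 to 0.19). The lowest adjusted p belonged to the dim Atp1b1 probe set 1455949_at (-0.39), which passed without 18 m 3 (-0.45, adjusted p = 0.03) and without both 18 m 3 and 18 flut 3 (-0.49, adjusted p = 0.047). With array weights this probe set (-0.41, adjusted p = 0.011), Scnn1a (-0.43, adjusted p = 0.045) and Aqp5 (-0.46, adjusted p = 0.039) passed. With a pool left out, Scnn1a ran from -0.44 to -0.1 and Aqp5 from -0.34 to 0, and neither passed. For the interaction of flutamide and day, 0 of 18 passed, against 0.364% of all, with 5 at an unadjusted p under 0.05 and a lowest adjusted p of 0.26.

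**Figure D3:**
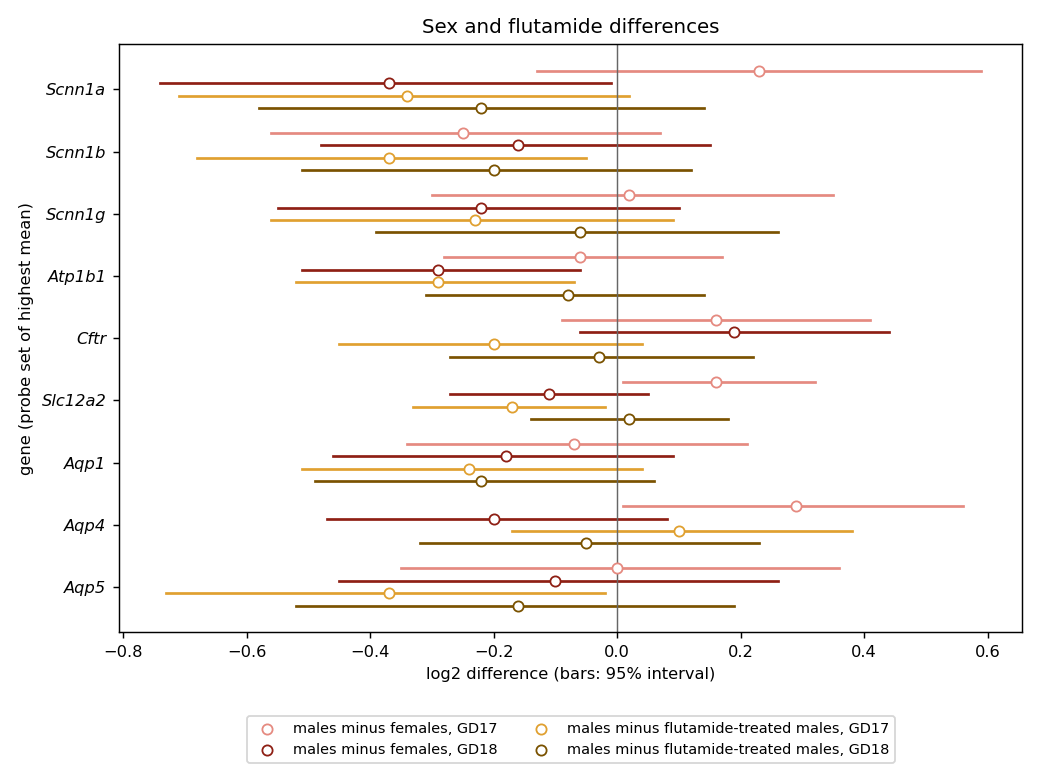
Log2 difference (horizontal axis) of males minus females and males minus flutamide-treated males at GD17 and GD18, for the leading probe set of each gene. Points are fitted differences and bars 95% intervals, and all points are open because no leading probe set had an adjusted p under 0.05. The values lie between -0.37 and 0.29.

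Deviations of the pools from their group means were shared by several members. As a description over 18 pools that share array and RNA pool, the deviations from the group means of Atp1b1 and Aqp1 correlated at 0.88, those of Scnn1g and Aqp1 at 0.87 and those of Scnn1a and Aqp5 at 0.82. Aqp4 ran against several of them, at -0.61 with Scnn1a and -0.53 with Aqp5. Pool 17 m 2 was highest of its group in 8 of the 9 members with a median deviation of 0.19, 17 m 3 was lowest in 7 (-0.15), 18 flut 2, high in liver genes, lowest in 8 (-0.21) and 18 m 3 highest in 7 (0.13). The type I sum was also lowest of its group in 18 flut 2 (31900 against 38000 and 37700), but in 18 m 3 it was 31800 against 33700 and 34000. The liver sums of 18 flut 2 (40400) and 18 m 3 (73600) were the highest of their groups, and their part in these deviations was not tested.

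The genes whose pattern over the 18 pools was most like that of a member were ranked by Pearson's r among 18192 others, a measure that the day difference dominates. For Aqp5 they were Aqp1 (0.991), Sftpd, a surfactant collectin (0.991), and Tppp3 (0.99), and for Aqp1 they were Igfbp6 (0.997), Cbr2 (0.995) and the potassium channel gene Kcnj15 (0.993). Scnn1a was nearest to Rhof (0.988), Timp3 (0.984) and Kank2 (0.982), and Scnn1g to Foxo3, AA986860 and Gprc5a (each 0.989). Atp1b1 was nearest to AA986860 (0.994), Klf9 (0.993) and Tinagl1 (0.992). Slc12a2 was nearest to Scn7a (0.983), Cav2 (0.98) and Prex2 (0.979), and Cftr to Rasip1 (0.97), Adgrg6 (0.948) and Lrrk1 (0.947). Scnn1b was nearest to Unkl (0.963), Pdgfb (0.961) and Jcad (0.954), and Aqp4 to Lpp (0.949), Epb41l5 (0.944) and Pcmtd2 (0.938).

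The 6 lists of other transport genes were read beside the members, with 1 probe set per gene and 59 genes measured. Over all probe sets 12.4%, 16.5% and 9.61% were called higher at GD18 in males, females and flutamide-treated males. The share of all called lower was not counted. Of 15 regulators of ENaC, 9, 9 and 6 were called higher at GD18 in males, females and flutamide-treated males, and 2, 1 and 1 lower. Hsd11b1, which regenerates active glucocorticoid, rose by 1.81, 2.02 and 1.23. Nedd4l, the ubiquitin ligase that removes ENaC from the membrane, rose by 1.15, 1.55 and 1.05, and Prss8, a protease that activates ENaC, by 0.65, 0.83 and 0.62. Nr3c1, the glucocorticoid receptor, rose by 0.27, 0.6 and 0.21. The list thus holds genes known to raise and to lower channel activity, and members of both kinds rose. Chosen after their values were seen, the genes called lower in males were Hsd11b2, which inactivates glucocorticoid (-0.35, also lower in the other 2 comparisons at -0.56 and -0.24), and Nr3c2, the mineralocorticoid receptor (-0.25).

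The other lists held fewer calls. Of 8 other Na,K-ATPase subunits and FXYD proteins, which regulate the pump, 4 were higher in each comparison and 1, 2 and 1 lower, with Fxyd5 at 0.78, 0.63 and 0.58, Fxyd4 at 0.61, 0.56 and 0.51, Fxyd1 at 0.42, 0.42 and 0.56 and Fxyd6 at -0.82, -1.21 and -0.45. Of 14 other chloride channels and transporters, 4, 3 and 2 were higher and none lower, with the calcium-activated chloride channel gene Ano1 at 0.63, 0.8 and 0.57 and Ezr, a linker of membrane proteins to actin, at 0.23, 0.47 and 0.26. The anion exchanger gene Slc4a2 rose in males and females (0.31 and 0.2), and Slc12a7, a potassium-chloride cotransporter gene, in males (0.29). Of 7 potassium channel genes, 3, 3 and 2 were higher and 1, 2 and 1 lower. Kcnj15 rose by 2.12, 2.14 and 1.91, Kcne2 by 1.37, 1.18 and 1.23, and Kcnk1 fell, at -0.45, -0.64 and -0.41. Kcnn4 was lower in females (-0.9, adjusted p = 0.0097). Of 6 sodium-proton, bicarbonate and phosphate transporter genes, 3, 3 and 2 were higher and none lower. Slc34a2, which carries sodium and phosphate into type II cells, rose 10.5-fold, 13.3-fold and 6.1-fold. Slc9a3r2, a scaffold of sodium-proton exchangers, rose by 0.93, 0.88 and 0.76, and the bicarbonate cotransporter gene Slc4a4 by 0.32 in males and 0.52 in females. Of the 9 other aquaporins none was called in males or flutamide-treated males, and 1 was lower in females, Aqp12 at -0.46 (adjusted p = 0.026).

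In the comparisons of sex, and of flutamide at GD18, 0 of these 59 genes were called. Over all probe sets the shares were 4.1% and 1.85% for sex at GD17 and GD18, and 3.95% for flutamide at GD18. At GD17, 1 of the 59 was called with flutamide, against 3.55% of all probe sets. It was Slc34a2, with a log2 difference of males minus flutamide-treated males of -1.22 (SE 0.32, adjusted p = 0.045).

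**Figure D4:**
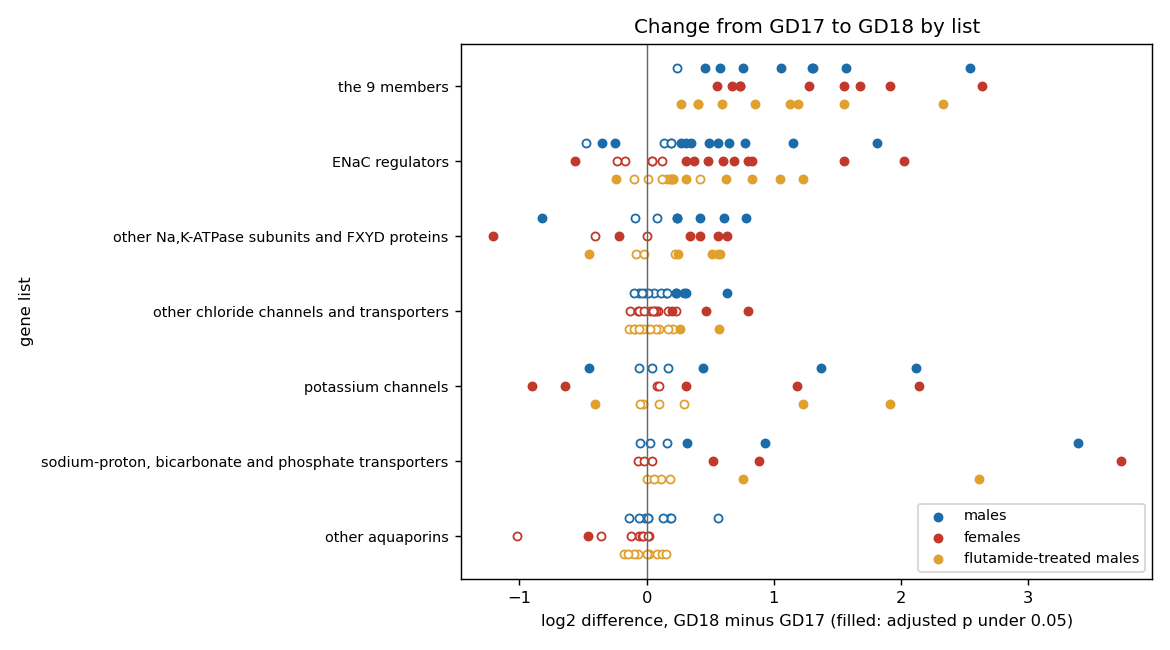
Log2 difference GD18 minus GD17 (horizontal axis) of the 9 members and the genes of 6 other transport lists. Each point is 1 gene by its leading probe set, filled where the adjusted p is under 0.05, in males, females and flutamide-treated males. The members lie between 0.24 and 2.64, and the point farthest to the right is Slc34a2 in females at 3.73.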

How the data were processed

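Lung RNA of 18 pools was hybridized to Affymetrix MOE430 2.0 arrays. The authors deposited an intensity for each probe set, background-subtracted, normalized and summarized by RMA, and its log2 was taken here, because the deposited values (6.61 to 30228) are linear. The submitters' processing notes name limma. The 64 AFFX controls of 45101 probe sets were left out. Symbols came from a platform annotation of 2016, which left 9160 probe sets unnamed, gave 932 more than 1 symbol and gave 34945 a single symbol.

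A model of 6 group means was fitted with limma 3.58.1 in R 4.3.3 (12 residual degrees of freedom, eBayes), and the Benjamini-Hochberg adjustment ran over all 45037 probe sets within a comparison. The fit was tested on simulated data. The members and lists were chosen with earlier results of these data known. Members were named by symbol, and in each list up to 4 called genes by their smallest p over the 3 comparisons of day. The number of arrays limits precision. Each p-value rests on the spread between pools within a group, pooled over the 6 groups and moderated across probe sets. The CEL files, and 8 of the 67 listed genes, were not analysed here.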

Additional observations from a re-analysis of the deposited data

How the results depend on the processing

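The 27 day differences of the leading probe sets stayed above 0 in all 486 values under the alternatives run. Many of these values could not differ from the main ones. A changed threshold, variance or set of probe sets, a balanced block, and arrays outside the comparison leave a difference as it was. Of the 486 values 462 kept their side of the threshold, 21 lost the call and 3, all Aqp4 in males, gained it. Of all 1038 values for 57 single results 984 kept it and 1 changed sign: Slc12a2 1417623_at in flutamide-treated males, never called, ran from -0.01 without 18 flut 1 to 0.21 without 18 flut 2. The count for flutamide at GD17, 1 in the report, was 2 at an adjusted p under 0.1, with dim probe sets left out, with array weights, with a trended and robust variance, and without 18 m 3 and 18 flut 3. It was 0 at an adjusted p under 0.01, with only the arrays compared, with a replicate block (Atp1b1 1451152_a_at at -0.36, adjusted p = 0.054), with 1 probe set per gene, and without 17 m 3, 17 f 2 and 17 f 3. The count for flutamide at GD18, 0 in the report, was 1 at an adjusted p under 0.1, 3 with array weights, and 1 without 18 m 3 and 18 flut 3. Without those 2 pools the counts for sex at GD18 and for the interaction of sex and day were 1 each, and with array weights 3 and 1. With 1 probe set per gene, 9 of 9 were called in females from GD17 to GD18. The share of all probe sets called under each alternative was not counted, so a changed count is not read as a result about the members. With each pool left out in turn, the counts ran from 0 to 3 for flutamide at GD17, from 0 to 1 for flutamide and sex at GD18 and for the interaction of sex and day, from 12 to 14, 15 to 15 and 9 to 13 for the day in males, females and flutamide-treated males, and from 0 to 0 for sex at GD17 and the interaction of flutamide and day. The deviations of same-numbered pools had a median correlation of -0.03 (from -0.32 to 0.37), against 0.01 for pools of different number. Of 18 pools, 10 correlated best with a pool of their own number, and the count that chance would give was not computed. Whether same-numbered pools are paired was thus not settled, and the block is given here only. Where no value shows a cause, the cause was not tested.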
